A study of Mus musculus with 15 samples.

Results

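The phosphatidylinositol transfer protein family was followed through 6 of the 36282 gene names on the array, Pitpna, Pitpnb, Pitpnc1, Pitpnm1, Pitpnm2 and Pitpnm3. The members were taken as every probe of the array whose gene name is one of these symbols, which gave 9 of 55681 probes, and all 9 passed the filter on dim probes. The members were selected on the values of Pitpnm3 in the comparison of Siva hairpins with control hairpins, in which it stood out, so the values of Pitpnm3 in that comparison, in each line and for each hairpin, are given as a description with no test. Pitpnm3 was well above background on all 8 arrays with a Siva hairpin and on 1 of 7 control arrays, so it passed the filter only through the group in which it is high and had to differ.

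Total RNA was measured on 15 Agilent 1-colour arrays from LSZ2 and LSZ4, 2 mouse cell lines of non-small cell lung cancer. The hairpins, short RNAs that lower the messenger RNA they match, were shSiva1 and shSiva2 against Siva, a target gene of p53, and the controls shGFP and shLacZ. The 8 groups were each line with shGFP in the pLKO.1 vector, shLacZ in the LL37 vector, and shSiva1 and shSiva2 in the pLKO TRC2.0 vector, with 2 arrays per group except LSZ2 with shGFP, which had 1. All cells were infected with virus made in 293T cells and grown in DMEM with serum, all but the shLacZ cells were kept in puromycin for 3 days, and RNA was collected 2 days after plating. Whether replicates are separate cultures is not stated in the labels, and p-values then reflect the spread between these samples, which may be technical. The 2 arrays labelled shGFP1 and shGFP2 in LSZ4 were read as replicates. All 7 control arrays lie on 1 slide and all 8 shSiva arrays on the other, so that slide, vector and Siva hairpin cannot be told apart in any comparison of shSiva with control. No slide holds both, so no within-slide value of that comparison can be given.

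The array 75th percentile of signal ran from 428 to 1029, and 49.0% to 60.6% of spots were well above background. Values are log2 of the processed signal relative to that percentile, so a negative value is dimmer than it. Siva1, the targeted gene, averaged 5.77 ± 0.55 (SD, n = 7) with control hairpins and 3.22 ± 0.55 (SD, n = 8) with Siva hairpins, a difference of -2.52 (SE 0.26; limma, adjusted p = 3.19e-05), and in both lines each of the 8 shSiva arrays read lower than any control. Siva1 averaged 2.80 ± 0.38 (SD, n = 4) with shSiva1 and 3.65 ± 0.30 (SD, n = 4) with shSiva2 (limma, adjusted p = 0.0534). Epithelial markers were present on all 15 arrays for 4 of 5 genes, and Epcam on 14, while the lung markers Nkx2-1 and Sftpc were not well above background on any array. The other lung markers were dim, with Sftpb above background on 7 control and 4 shSiva arrays, Scgb1a1 on 4 and 4, Hopx on 5 and 2 and Napsa on 0 and 1. Among blood markers given here, Lyz2 was above background on no array, Ptprc on 3 control and 5 shSiva arrays, Cd68 on 0 and 3, and Cd3e on all 15. Among the endothelial markers Cdh5 was above background on none and Pecam1 and Kdr on all 15, and the fibroblast markers Pdgfra, Pdgfrb and Dcn were above it on none. The fourth fibroblast marker, Col1a1, was above it on 1 control and 4 shSiva arrays, with means of -5.59 and -4.99, and the part of any other cell type in the results was not tested.

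Phosphatidylinositol is the membrane lipid from which the phosphoinositide signals are made, and it is synthesised in the endoplasmic reticulum, away from the plasma membrane where receptors use it. Transfer proteins carry it between membranes, usually in exchange for another lipid, so that the kinases that phosphorylate it keep a supply after phospholipase C has cut phosphatidylinositol 4,5-bisphosphate. Pitpna and Pitpnb are small soluble carriers, Pitpnc1 is a soluble carrier that also transfers phosphatidic acid, and Pitpnm1 and Pitpnm2 (also called Nir2 and Nir3) are large proteins that act at contacts between the endoplasmic reticulum and the plasma membrane. Pitpnm3 (Nir1) belongs with them by sequence but lacks the transfer domain, binds the tyrosine kinase Ptk2b, and has been described as a chemokine receptor on tumour cells.

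The sequence upstream of Pitpnm3 and Pitpnc1, the members with the most marked differences between hairpins below, is shown for reference. Both come from RefSeq on GRCm38.p6, as the 250 bases before the start of the gene on the minus strand, 5′ to 3′, with capitals for a GC box (GGGCGG, either strand) or a CCAAT box (CCAAT, either strand).
Pitpnm3, chr11:72135890-72136139: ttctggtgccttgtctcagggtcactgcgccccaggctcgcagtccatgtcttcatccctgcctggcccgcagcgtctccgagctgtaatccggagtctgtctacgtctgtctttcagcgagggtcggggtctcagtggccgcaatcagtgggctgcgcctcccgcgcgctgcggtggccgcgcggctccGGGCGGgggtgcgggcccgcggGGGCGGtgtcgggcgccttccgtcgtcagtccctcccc
Pitpnc1, chr11:107470721-107470970: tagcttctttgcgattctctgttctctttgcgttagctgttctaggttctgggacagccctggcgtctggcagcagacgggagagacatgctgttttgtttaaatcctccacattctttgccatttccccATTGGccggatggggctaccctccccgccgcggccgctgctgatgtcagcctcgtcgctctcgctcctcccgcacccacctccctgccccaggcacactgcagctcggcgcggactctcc
The Pitpnm3 window held 2 GC boxes, 60 and 38 bases before the start, and was 70.8% G or C, against a median of 52.4% over 32851 promoters of this length. The Pitpnc1 window held 1 CCAAT box, 120 bases before the start, and was 60.4% G or C. A GC box occurs in 32.7% of these promoters and a CCAAT box in 33.8%. The other motifs searched on both strands, the E-box CACGTG (6.02% of promoters), the AP-1 site TGANTCA (6.75%), the CRE TGACGTCA (1.55%) and TATAAA (12.4%), had no match in the windows of any of the 6 genes, all of which were matched in RefSeq. These are matches of letters only.

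The Pitpnm3 probe lies on the mouse mm9 build at chr11:71861032-71861091, on the minus strand, and is 28.3% G or C against a median of 43.3% over all probes. In LSZ2 the Pitpnm3 value was -5.26 with shGFP and -6.15 and -5.70 with shLacZ, against -0.97 and -0.57 with shSiva1 and -2.57 and -2.52 with shSiva2. In LSZ4 it was -6.67 and -6.69 with shGFP and -7.29 and -6.88 with shLacZ, against 0.06 and 0.25 with shSiva1 and -2.57 and -2.18 with shSiva2. Every shSiva array of both lines was above every control array, with no overlap. In such bulk samples more cells with the transcript and more of it per cell cannot be told apart. In the signal itself the 7 control arrays read from 4.21 to 23.3 and the 8 shSiva arrays from 106 to 1010.

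**Figure D1:**
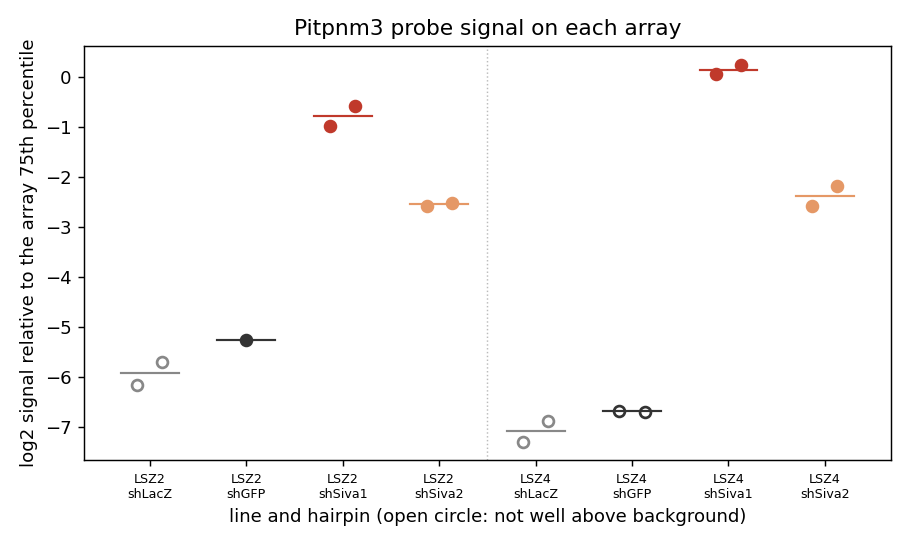
Pitpnm3 probe signal (log2, relative to the 75th percentile of the array) on each of the 15 arrays, by line and hairpin. Points are arrays, lines are group means and open circles are arrays not well above background. The shSiva1 arrays, from -0.97 to 0.25, lie above the shSiva2 arrays, from -2.57 to -2.18, and all shSiva arrays lie above all controls.

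From low to high, the group means were -7.08 (LSZ4 shLacZ), -6.68 (LSZ4 shGFP), -5.92 (LSZ2 shLacZ), -5.26 (LSZ2 shGFP, 1 array), -2.55 (LSZ2 shSiva2), -2.37 (LSZ4 shSiva2), -0.77 (LSZ2 shSiva1) and 0.16 (LSZ4 shSiva1). Only the 2 shSiva2 groups overlapped with their neighbour in that order. The control end of the order has little meaning, since 6 of its 7 arrays were not above background. Over both lines, Pitpnm3 was 4.97 (SE 0.48) higher with Siva hairpins than with control hairpins, with 1 of the 7 control arrays above background, so the size against control is not well measured. The difference was 4.04 (SE 0.66) in LSZ2 and 5.77 (SE 0.61) in LSZ4. No control array of LSZ4 was above background, so that on the processed signal the difference there is at least 12.7-fold. Against the controls of LSZ4, on the same signal, Pitpnm3 was at least 30.6-fold higher with shSiva1 and at least 5.29-fold higher with shSiva2. In LSZ2 the differences were 4.93 and 3.16, against controls of which 1 of 3 arrays was above background. The size depends on the background correction: with the normexp method and an offset of 50, which raises dim values, the differences were 2.19 over both lines, 2.10 in LSZ2 and 2.26 in LSZ4. The bounds above thus hold for the processed signal alone.

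Pitpnm3 was tested between the 2 Siva hairpins, between the 2 control hairpins and between the lines. None of these differences chose the gene. The first is made of the same shSiva arrays through which Pitpnm3 was chosen and passed the filter, so its p-value has that limit. Pitpnm3 was lower with shSiva2 than with shSiva1, with a difference of -2.15 (SE 0.38; limma, adjusted p = 0.000742), 4.44-fold, and all 4 shSiva2 arrays lay below every shSiva1 array of their line. Both Siva hairpins were in the same vector and on the same slide. Pitpnm3 differed by 0.35 (SE 0.41; limma, adjusted p = 0.544) between shGFP and shLacZ and by -0.25 (SE 0.48; adjusted p = 0.690) between LSZ4 and LSZ2. Neither passed, and both rest wholly or in part on control arrays that mostly sit at background. The difference from control in LSZ4 minus that in LSZ2 was 1.73 (SE 0.90), which is a description, since it is made of the values that chose the gene and of controls with 0 of 4 arrays above background in LSZ4 and 1 of 3 in LSZ2.

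Pitpnc1, the soluble carrier that also moves phosphatidic acid, was higher with shSiva1 than with control, while its rise with shSiva2 was smaller and did not pass. Its probe on the minus strand at chr11:107073492-107073551 (mm9) read -1.82 with shGFP and -1.65 and -1.85 with shLacZ in LSZ2, and -2.68, -2.66, -2.72 and -2.55 with the same hairpins in LSZ4. With shSiva1 it read -0.35 and -0.25 in LSZ2 and -0.11 and -0.16 in LSZ4. With shSiva2 it read -1.67 and -1.55 in LSZ2 and -1.80 and -1.90 in LSZ4. The 4 shSiva1 arrays stood above all other arrays. The shSiva2 arrays overlapped with the controls in LSZ2 and lay above all 4 controls in LSZ4.

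Over both lines the Pitpnc1 difference was 1.27 (SE 0.32; limma, adjusted p = 0.0189), 2.41-fold, with 7 of 8 shSiva arrays above every control array of their line. With 1 mean per line and hairpin in place of the single arrays, the difference was 1.24 and did not pass (limma, adjusted p = 0.186). In LSZ4 alone it was 1.66 (SE 0.42; adjusted p = 0.0379), and this call was lost when any of 8 single arrays was left out and under 4 other settings. In LSZ2 alone it was 0.81 (SE 0.46; adjusted p = 0.613). The difference between the lines in that effect was 0.85 (SE 0.62; adjusted p = 0.893), so the lines were not shown to differ.

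Split by hairpin, with both set against the same 7 control arrays, Pitpnc1 was 2.02 (SE 0.18; limma, adjusted p = 9.74e-07) higher with shSiva1, 4.07-fold, and 0.51 (SE 0.18; adjusted p = 0.0751) higher with shSiva2. The shSiva2 difference passed with quantile scaling (0.54; limma, adjusted p = 0.0342) and, at 0.59, without the first shLacZ array of LSZ2. Directly compared, Pitpnc1 was lower with shSiva2 than with shSiva1, with a difference of -1.51 (SE 0.20; limma, adjusted p = 5.69e-05), 2.85-fold, and all 4 shSiva2 arrays lay below every shSiva1 array of their line. This call and that of shSiva1 against control held under each of the 10 other settings and with each of the 15 arrays left out, with adjusted p up to 0.00992 and 0.00072.

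A second Pitpnc1 probe, at chr11:107070196-107070255 (mm9) and further along the transcript, moved less. It read -1.72 with shGFP and -1.87 and -2.07 with shLacZ in LSZ2, and -2.78, -2.82, -2.10 and -2.51 in LSZ4 in the same order. With shSiva1 it read -1.44 and -1.70 in LSZ2 and -0.74 and -1.74 in LSZ4, and with shSiva2 -1.96 and -1.89 in LSZ2 and -2.09 and -1.80 in LSZ4. Every shSiva1 array was above the controls of its line, and the LSZ4 shSiva1 pair spanned most of the range of the probe with Siva hairpins. The probe was 0.84 (SE 0.23; limma, adjusted p over probes = 0.0165) higher with shSiva1 than with control and 0.58 (SE 0.22; adjusted p over probes = 0.107) higher over both hairpins. With shSiva2 it was 0.31 (SE 0.23; limma, adjusted p over probes = 0.478) higher than with control. Its difference of shSiva2 from shSiva1 was -0.53 (SE 0.26; limma, adjusted p over probes = 0.185). Without the first shSiva1 array of LSZ4, the brighter of that pair, the shSiva1 difference was 0.55 and did not pass (limma, adjusted p over probes = 0.0765). With 8 group means it was 0.79 and did not pass either (limma, adjusted p over probes = 0.108). The 2 probes of Pitpnc1 thus had the same direction and different sizes, and the call with shSiva2 against shSiva1 rests on the first.

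Pitpna and Pitpnb, the small soluble carriers, did not pass in any comparison of the gene fit. Pitpnb read 1.41 and 1.47 with shSiva1 and 1.62 and 1.54 with shSiva2 in LSZ2, beside 1.55, 1.56 and 1.65 in the controls. In LSZ4 it read 1.30 and 1.66 with shSiva1 and 1.77 and 2.09 with shSiva2, beside 2.16, 2.15, 1.81 and 2.17 in the controls. The shSiva1 arrays were thus low in both lines. The difference of Pitpnb was -0.38 (SE 0.14; limma, adjusted p = 0.0550) for shSiva1 against control, which did not pass, and -0.23 (SE 0.13; adjusted p = 0.278) over both hairpins. The shSiva1 difference passed with quantile scaling (-0.27; limma, adjusted p = 0.0221), with a filter on all 15 arrays (adjusted p = 0.0487) and with the replicate block (adjusted p = 0.0291). It also passed without the first shLacZ array of LSZ4 (adjusted p = 0.0262) or the second shSiva1 array of LSZ2 (adjusted p = 0.0459), and its adjusted p was 0.293 with 8 group means.

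Pitpna was bright on every array, and its 2 probes did not move the same way. The probe of the gene fit, at chr11:75440169-75440228 (mm9), ran from 6.34 to 7.49, with a difference of -0.22 (SE 0.17; limma, adjusted p = 0.427) for Siva hairpins against control. The other, at chr11:75442061-75442120, ran from 2.38 to 3.58 and was 0.39 (SE 0.15; adjusted p over probes = 0.128) higher, with 6 of 8 shSiva arrays above every control array of their line. It was 0.57 (SE 0.16; limma, adjusted p over probes = 0.0333) higher with shSiva2 than with control, with all 4 arrays above the controls of their line, a call lost when any of 7 single arrays was left out and under 4 of 9 other settings. With quantile scaling this probe passed over both hairpins (0.49; limma, adjusted p over probes = 0.004), for shSiva1 (0.38; adjusted p over probes = 0.00881) and in LSZ4 (0.55; adjusted p over probes = 0.0235), and without the first shSiva1 array of LSZ4 it passed over both hairpins (0.48; adjusted p over probes = 0.0377). The mean of both probes gave a Pitpna difference of 0.08 (limma, adjusted p = 0.779), so no direction is given for the gene, and quantile scaling also turned the sign of its difference between lines, to -0.23 from 0.27.

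**Figure D2:**
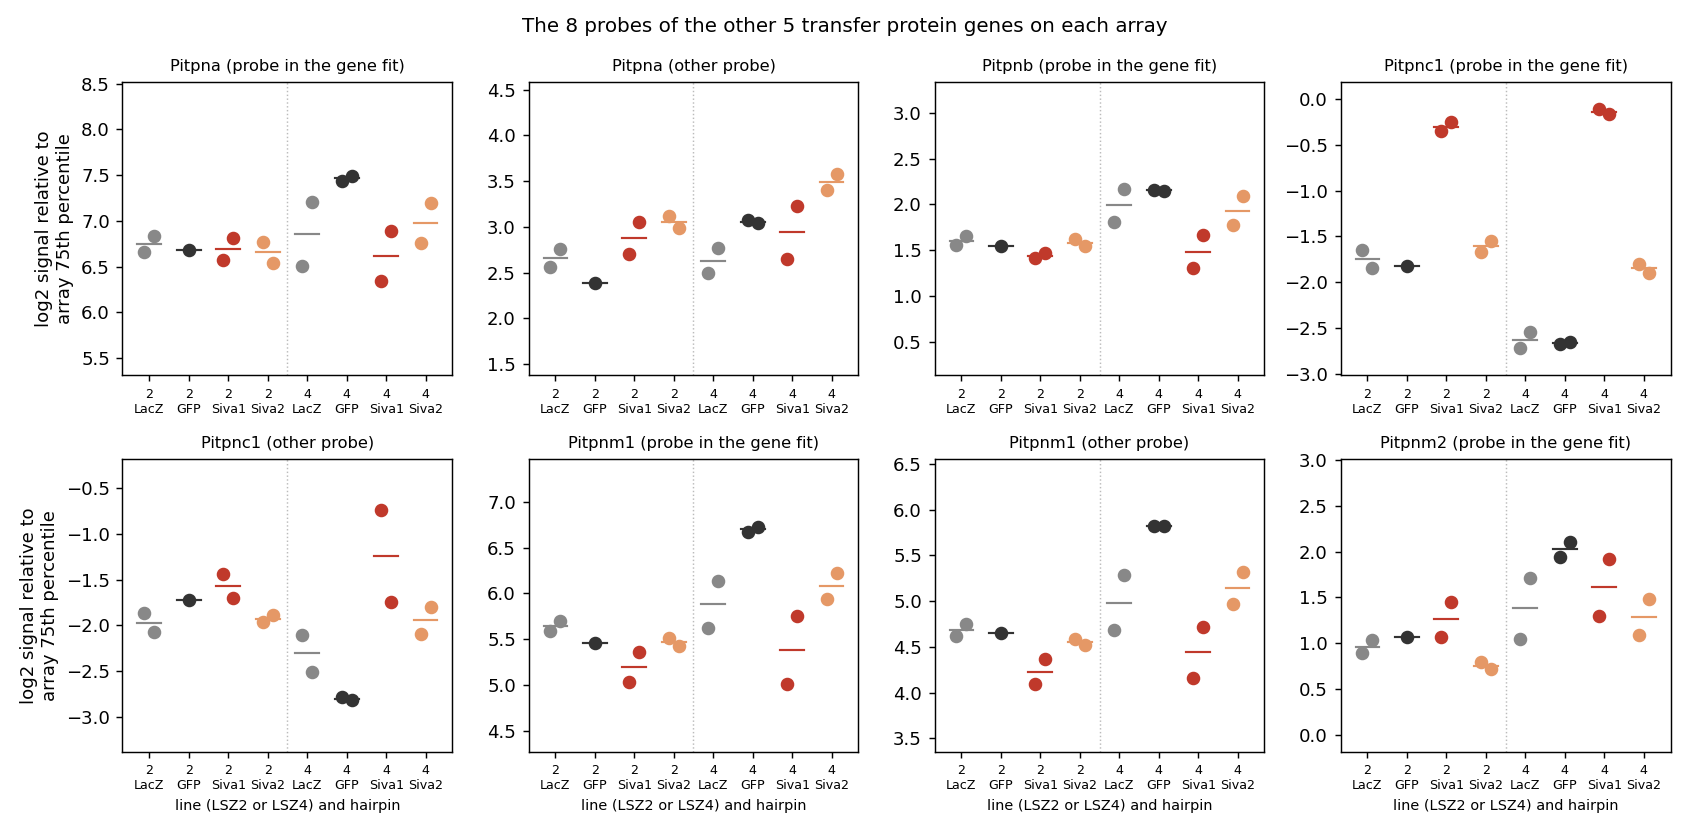
Signal of the 8 probes of the other 5 genes on each array (log2, relative to the 75th percentile of the array), by line and hairpin, with group means as lines and every axis spanning the same number of log2 units. The first Pitpnc1 probe stands at -0.35 to -0.11 with shSiva1 and at -1.55 or lower elsewhere. Both Pitpnm1 probes, Pitpnm2 and the first Pitpna probe are highest on the LSZ4 shGFP arrays.

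Pitpnm1 and Pitpnm2, the large transfer proteins of the contact sites, moved little next to Pitpnm3. Pitpnm1 read 5.03 and 5.36 with shSiva1 in LSZ2 beside 5.46, 5.59 and 5.70 in the controls, and 5.01 and 5.75 in LSZ4 beside 6.67, 6.73, 5.62 and 6.14. With shSiva2 it read 5.51 and 5.42 in LSZ2 and 5.94 and 6.22 in LSZ4. Only the shSiva1 arrays of LSZ2 lay below all controls of their line together. Pitpnm1 fell by 0.66 on the log2 scale with shSiva1 (SE 0.22; limma, adjusted p = 0.0352) and its second probe fell by 0.71 (SE 0.21; adjusted p over probes = 0.0243). With shSiva2 the Pitpnm1 difference was -0.18 (SE 0.22; limma, adjusted p = 0.710). Directly compared, shSiva2 differed from shSiva1 by 0.49 (SE 0.24; limma, adjusted p = 0.190) and did not pass. The second probe differed by 0.51 (SE 0.24; adjusted p over probes = 0.160). With quantile scaling both passed, at 0.27 (limma, adjusted p = 0.0394) and 0.31 (adjusted p over probes = 0.0409). The median of all genes was -0.19 for shSiva1 against control and -0.05 for shSiva2 against control. The shSiva1 call of the first probe was lost when any of 7 single arrays was left out, with -0.45 (adjusted p = 0.166) without the first shSiva1 array of LSZ4, and under 4 of 10 other settings. The call of the second probe was lost with a random block for each line and hairpin (limma, adjusted p over probes = 0.0586), with 8 group means (0.128), and without the first shSiva1 array of LSZ2 (0.0558) or of LSZ4 (0.113).

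Pitpnm2 read 1.07 and 1.45 with shSiva1 and 0.79 and 0.72 with shSiva2 in LSZ2, beside 1.07, 0.89 and 1.03 in the controls. In LSZ4 it read 1.30 and 1.92 with shSiva1 and 1.09 and 1.48 with shSiva2, beside 1.94, 2.11, 1.05 and 1.71. The arrays of the 2 arms overlapped in both lines, and Pitpnm2 differed by -0.13 (SE 0.18; limma, adjusted p = 0.696) over both hairpins. It was the member called between the lines, 0.56 (SE 0.18; adjusted p = 0.0420) higher in LSZ4, and this call was lost when any of 11 single arrays was left out and under 4 of 10 other settings. The median of all genes between the lines was 0.23. With quantile scaling that median was 0.07, and Pitpnm2 differed by 0.46 (limma, adjusted p = 0.0548). The values of the first Pitpna probe, Pitpnm1 and Pitpnm2 were highest on the shGFP arrays of LSZ4, which also had the lowest 75th percentiles of the series, 428 and 457. The part of array brightness in these small differences was not tested.

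The counts over the family follow, each beside the share of all 22908 genes called in the same comparison by limma at an adjusted p under 0.05. Of the 5 members other than Pitpnm3, 1 was called over both hairpins (background 9.97% of genes), which is Pitpnc1, none in LSZ2 (0.939%) and 1 in LSZ4 (4.57%). For shSiva1 against control 2 of 5 were called (25.9%), Pitpnc1 higher and Pitpnm1 lower, and for shSiva2 against control none was (12.2%). Over probes, 1 of the 8 other than that of Pitpnm3 was called over both hairpins (9.25% of 32188 probes). Of all 6 members, 2 were lower with shSiva2 than with shSiva1 (19.5%), 1 differed between lines (21.7%), and none between shGFP and shLacZ (0.00437%), while of the 5 without Pitpnm3 none was called in the difference of the effect between lines (0%). At an unadjusted p under 0.05 the comparisons with no call held 0 members in LSZ2 (2348 of 22908 genes), 1 with shSiva2 against control (5491 genes), 0 between the control hairpins (2320 genes) and 0 between lines in effect (526 genes). Without the first shLacZ array of LSZ4, 3 of 5 members were called in LSZ4 and 3 of 6 between lines, and the calls over all genes rose from 1047 to 6059 and from 4968 to 12038. Without the first shSiva1 array of LSZ4, 3 of 6 were called between lines, with 11469 genes called in all. No share over so few members is read as a result about the family. The median difference of the 5 members over both hairpins was -0.22, beside -0.12 over all genes.

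**Figure D3:**
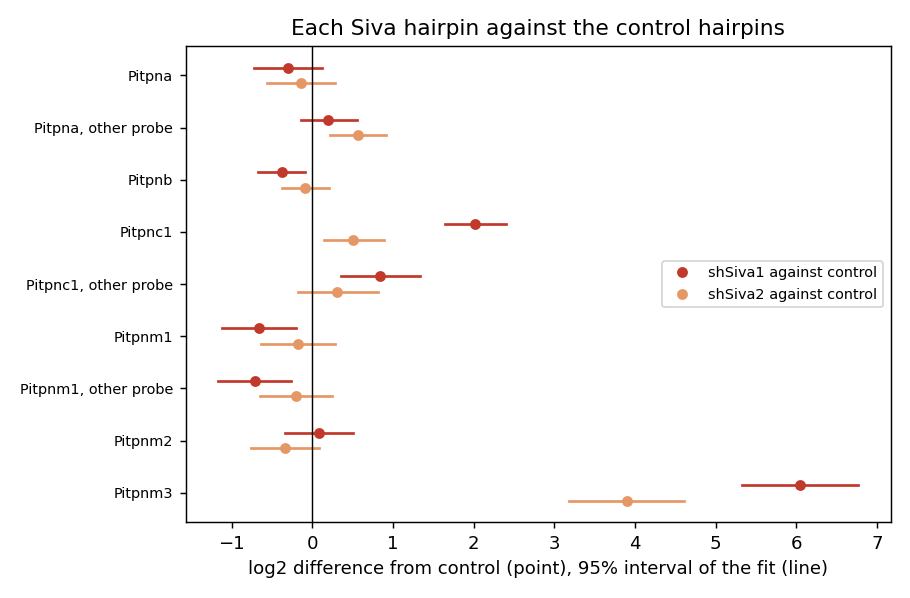
Log2 difference of each of the 9 probes from the 7 control arrays, for shSiva1 (dark) and shSiva2 (light), with 95% intervals of the limma fit. Both comparisons share the control arrays. Pitpnm3, plotted at 6.05 and 3.90, is a description, Pitpnc1 lies at 2.02 and 0.51 on its first probe, and all other points lie between -0.71 and 0.84. The sign of the first Pitpna probe with shSiva1 turns under quantile scaling, and that of Pitpnm2 under normexp.

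The genes that make, phosphorylate, cut or dephosphorylate the same lipid gave the setting. Of 114 genes in 8 lists, 98 were tested, and 4 rose and 4 fell over both Siva hairpins, 8.16% against the background of 9.97% (1 of the 4 that rose, Inpp5d, entered the test only through its shSiva arrays), with a median of -0.05 beside -0.12 over all genes. The number called ranged from 2 to 13 over the other settings and was 13 without the first shLacZ array of LSZ4. All 8 called genes lay beyond every control array of their line on 8 of 8 shSiva arrays. These genes were chosen by the same comparison, so this separation is a description and adds no support. Their calls below within a line or for a single hairpin reuse the same arrays and add no separate support either.

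Phospholipase C enzymes, which cut phosphatidylinositol 4,5-bisphosphate into diacylglycerol and inositol trisphosphate, gave 2 risen genes of 9 tested. Plcg2, the isoform activated by tyrosine kinases, averaged -3.41 ± 0.38 (SD, n = 7) in controls and -0.79 ± 0.78 (SD, n = 8) with Siva hairpins, a rise of 2.63 (SE 0.31; limma, adjusted p = 9.67e-05). Plcd1, a calcium-sensitive isoform, rose by 1.61 (SE 0.18; adjusted p = 6.84e-05). Both were also called within LSZ2 and within LSZ4, on the same arrays as the pooled comparison that named them, so this is no separate support. Plcg2 had a lower value with shSiva2 than with shSiva1, a difference of -1.17 (SE 0.30). That difference is given with no test, since Plcg2 is also among the genes most like Pitpnm3 below. Plcd1 was 0.38 (SE 0.23; limma, adjusted p = 0.276) higher with shSiva2 than with shSiva1.

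Among 20 tested genes of the contact sites and the partners of Nir proteins, 1 was called: Ptk2b, the tyrosine kinase that the Nir proteins bind, rose by 0.87 (SE 0.16; limma, adjusted p = 0.00371), by 1.0 with shSiva1 (adjusted p = 0.0013) and by 0.74 with shSiva2 (adjusted p = 0.0174). Of 24 phosphoinositide phosphatases 1 rose and 2 fell. The one that rose, Inpp5d, the blood-cell 5-phosphatase SHIP1, was 1.30 (SE 0.24) higher with Siva hairpins. It was above background on all 8 shSiva arrays and 1 of 7 control arrays, so it passed the filter only through the group in which it is high, and its value is a description. Inpp5k and Inpp5b, 5-phosphatases found more broadly, fell by 0.77 (SE 0.13; limma, adjusted p = 0.00154) and 0.48 (SE 0.13; adjusted p = 0.0298). Of 12 genes of the phosphatidylinositol 4-kinases and their complex, Pi4ka, the kinase of the plasma membrane, fell by 0.48 (SE 0.13; limma, adjusted p = 0.0272), and of 12 diacylglycerol kinases and phosphatidate phosphatases, Dgkh, which phosphorylates diacylglycerol, fell by 1.0 (SE 0.21; adjusted p = 0.00729). With normexp the Dgkh difference was -0.36 (limma, adjusted p = 0.460) and that of Inpp5d 0.57, and Dgkh lost its call under 3 of 10 other settings in all. Pi4ka and Inpp5b lost their calls when any of 6 and 7 single arrays was left out and each under 4 of 10 other settings (limma, adjusted p up to 0.271 and 0.258). With shSiva1 each fell by 0.67 (limma, adjusted p = 0.00138 and 0.0013). With shSiva2 they differed by -0.3 and -0.28 and did not pass (limma, adjusted p = 0.165 and 0.183). Directly compared, shSiva2 differed from shSiva1 by 0.37 and 0.39 (limma, adjusted p = 0.0841 and 0.071). The 2 hairpins were thus not shown to differ for either gene. Neither was called within LSZ2 or within LSZ4. Inpp5k and Ptk2b each lost theirs with 8 group means (limma, adjusted p = 0.083 and 0.0903).

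None of the 7 genes of phosphatidylinositol synthesis, 7 PIP kinases and 7 Sec14-like proteins was called over both hairpins. The largest differences in these lists were Cdipt, the phosphatidylinositol synthase, at -0.37 (SE 0.24; limma, adjusted p = 0.359), Pikfyve at 0.42 (SE 0.44; adjusted p = 0.592) and Sec14l5 at -0.58 (SE 0.23; adjusted p = 0.125). By hairpin, Cdipt differed from control by -0.75 with shSiva1 (limma, adjusted p = 0.0338) and by 0 with shSiva2 (adjusted p = 0.999). Directly compared, shSiva2 differed from shSiva1 by 0.75 for Cdipt and did not pass (limma, adjusted p = 0.0685). Pikfyve differed by -0.39 with shSiva1 (limma, adjusted p = 0.485) and by 1.23 with shSiva2 (adjusted p = 0.0553). Pikfyve was 1.63 higher with shSiva2 than with shSiva1 (limma, adjusted p = 0.017). Its probe was dim, with means of -3.66 with Siva hairpins and -4.13 in controls. It was above background on 7 of 8 shSiva and 4 of 7 control arrays, so these sizes are not well measured. Sec14l5 passed with neither hairpin. Over all 8 lists and both hairpins, 21 of 98 genes had an unadjusted p under 0.05, beside 5832 of all 22908 genes. Between shSiva2 and shSiva1, 9 list genes were higher and 18 lower with shSiva2, 27.6% against the background of 19.5%. No list gene was called between the control hairpins, with 8 at an unadjusted p under 0.05 (2320 of all genes), or in the difference between lines, with 1 (526 of all genes).

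**Figure D4:**
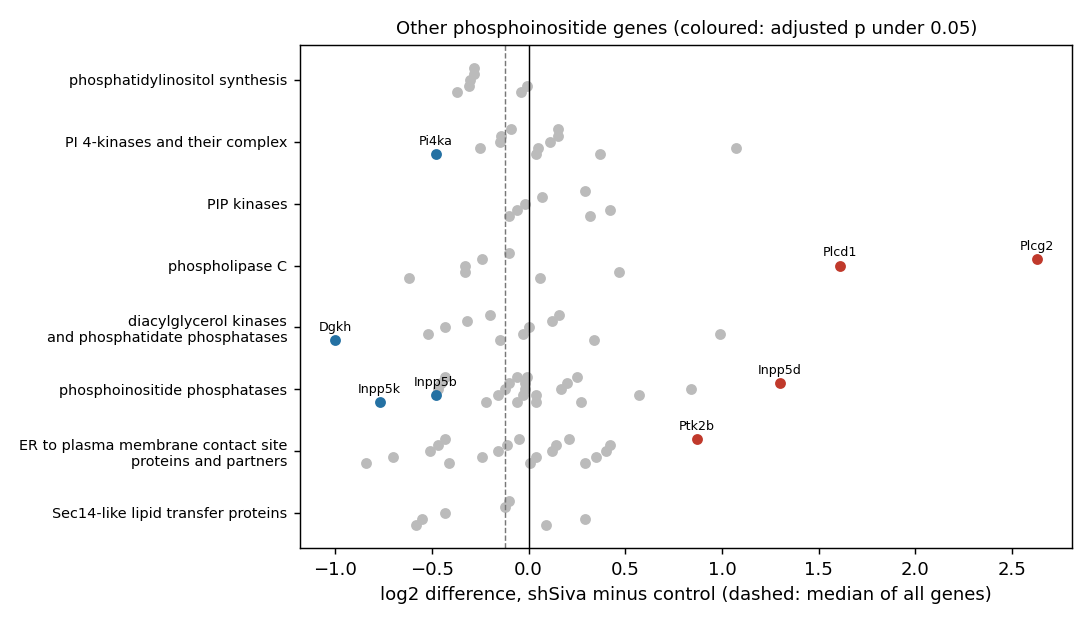
Log2 difference, shSiva minus control, of the 98 tested phosphoinositide genes by list, with the 8 called genes named (red higher, blue lower). The dashed line is the median of all genes at -0.12. Plcg2 at 2.63 and Plcd1 at 1.61 lie farthest to the right, and Dgkh at -1.0 farthest to the left.

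The 5 genes with an ordinary symbol whose values over the 15 arrays correlated best with those of Pitpnm3 were Il17rd (Pearson r = 0.983), Thsd1 (0.977), Prrx2 (0.974), Plcg2 (0.974) and Ptgs1 (0.966). These are descriptions over arrays that share 2 slides. Il17rd, a membrane inhibitor of fibroblast growth factor signals, averaged -5.17 and -6.25 with shLacZ in LSZ2 and LSZ4, -2.61 and -1.99 with shSiva1, and -3.90 and -3.76 with shSiva2. It was well above background on all 8 shSiva arrays and on 2 of 7 control arrays. Like Pitpnm3, it passed the filter only through the group in which it is high, and its correlation rests in part on dim control values. Prrx2, a homeobox factor of mesenchyme, averaged 2.30 and 1.77 with shLacZ, 4.86 and 5.13 with shSiva1, and 4.02 and 4.15 with shSiva2. Ptgs1, the constitutive cyclooxygenase, averaged -0.83 and -1.67, then 2.37 and 1.83, then 1.40 and 1.52 in the same order, and Thsd1, a thrombospondin-domain membrane protein, -3.89 and -3.76, then -1.29 and -0.43, then -2.03 and -1.66. Group means of all 5 were lowest in the controls and highest with shSiva1 in each line, and the difference of shSiva2 from shSiva1 ran from -0.64 (Ptgs1) to -1.53 (Il17rd), which is given with no test because likeness to Pitpnm3 chose these genes. Of the other members, Pitpnc1 correlated with Pitpnm3 at 0.899, Pitpna at -0.422, Pitpnb at -0.599, Pitpnm1 at -0.563 and Pitpnm2 at -0.10.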

How the data were processed

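Spot intensity values come from the scanner files of 15 arrays that the authors deposited. Feature Extraction 10.7.3.1 made them, as the file headers state, and its processed signal already has background removed. The log2 values that the authors deposited as a series-wide file match the log2 processed signal less the 75th percentile of the array, centred on each probe's median, within 0.05 for 99.5% of values. Their largest absolute column median is 0.526, and they served as an alternative.

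Control spots and flagged outliers were left out, spots of a probe averaged, and each array's log2 values set relative to its 75th percentile. The tests covered probes well above background on 4 or more arrays with no more than 3 missing. A gene was represented by its probe with the highest mean, which gave 22908 genes. The fits used limma 3.58.1 (R 4.3.3, data.table version 1.17.8) over all 15 arrays, with line and arm as terms (line and hairpin for the hairpins), Benjamini-Hochberg adjustment over all genes or probes and a threshold of 0.05. Symbols of 26582 probes were updated through their accession, probe positions are on mm9 per the file headers, and the fits were tested on simulated data. Where no array of the dimmer group was above background, a fold is a bound against the higher of the probe's own signal and the lowest signal well above background.

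The members, the 8 lists and the tests were chosen with earlier results of these data known. Besides the members and Siva1, the rule named up to 3 called genes per list, or else the 1 with the largest change, and the 5 genes most like Pitpnm3. The comparison of each Siva hairpin with control was added after the values were seen. Of the marker genes checked, 1 is not reported here. Alternatives covered scaling, background, filter, probe choice, blocks and arrays left out. No array pair was identical, and the number of arrays limits the precision.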

Additional observations from a re-analysis of the deposited data

Results flagged for a closer look

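In 1 of 27 groups of 4 arrays examined over the 9 probes, the lowest array stood apart from the others. Pitpnb in the LSZ4 controls read 1.81 on the first shLacZ array and 2.15, 2.16 and 2.17 on the other 3, so that the gap to the nearest array was 0.95 of the whole range, above the critical value of Dixon's test for 4 values. Chance gives a gap above that critical value in about 1 in 20 groups.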

How the results depend on the processing

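Pitpnm3 and Pitpnc1 were lower with shSiva2 than with shSiva1 in all 10 other settings that measured them (Pitpnm3 was not measured with a filter on all 15 arrays), and with each array left out. The members called changed in number as follows. Over both hairpins the count was 0 with 8 group means in place of 1. In LSZ4 it was 0 with normexp, no filter, line and hairpin as a random block, and 8 group means. Between lines it was 0 with normexp, the random block and 8 group means, and 2 with a filter on all 15 arrays. For shSiva1 against control it was 1 with median scaling, no filter, the random block and 8 group means, and 3 with quantile scaling, the filter on all 15 arrays and the replicate block. For shSiva2 against control it was 1 with quantile scaling, and for shSiva2 against shSiva1 it was 1 with the filter on all 15 arrays and 3 with quantile scaling. Probes called over both hairpins were 2 with quantile scaling and 0 with 8 group means. List genes called were 12 with quantile scaling, 4 with normexp, 6 with no filter, 7 with the filter on all 15 arrays, 10 with the mean of probes, 13 with the replicate block, 5 with the random block and 2 with 8 group means. With single arrays left out, the counts ran from 0 to 3 in LSZ4, 0 to 3 between lines, 1 to 3 for shSiva1 and 0 to 1 for shSiva2 against control, 6 to 13 for list genes and 1 to 2 for probes. The 13 came without the first shLacZ array of LSZ4. Signs turned only for differences that had not passed: with quantile scaling Pitpna read -0.15 (shSiva2 against shSiva1), -0.01 (shGFP against shLacZ), -0.23 (LSZ4 against LSZ2, adjusted p = 0.0326) and 0.02 (shSiva1 against control), and in the difference between lines of the Siva effect Pitpna and Pitpnm1 each read 0.07 and their other probes 0.14 and 0.03; with median scaling Pitpna read 0.03 and Pitpnb 0.01 in LSZ2; with normexp Pitpnc1 read 0.09 (shGFP against shLacZ), its other probe 0.06 and Pitpnm3 0.43 (LSZ4 against LSZ2), and Pitpnm2 -0.03 (shSiva1 against control); with the mean of probes Pitpna read 0.08 over both hairpins, 0.17 in LSZ2, 0.00 in LSZ4 and 0.21 for shSiva2; Pitpnm2 in LSZ2 read -0.04 with the replicate block and -0.01 with 8 group means, and the other probe of Pitpna 0.01 with the replicate block in the difference between lines. With single arrays left out, Pitpnm3 ran from -0.16 to 0.57 between control hairpins Pitpnm2 from -0.03 to 0.24 for shSiva1 and from -0.14 to 0.11 in LSZ2, Pitpna from -0.1 to 0.00 in LSZ2, and its other probe from -0.15 to 0.16 in the difference between lines. The causes were not tested. Normexp moved the Pitpnm3 difference to 3.01 with shSiva1 and 1.37 with shSiva2. The median of all genes over both hairpins was -0.12 here, -0.03 with quantile scaling and -0.06 with median scaling. Replicate numbers were compared over 21 pairs of groups. The correlations of deviations ran from -0.21 to 0.73, with 14 over 0.1. Whether the numbers pair the arrays is not stated in the labels and was not settled. With the replicate block 2906 genes were called over both hairpins, beside 2285 without it. Of 14 arrays, 12 correlated best with one of their own number, a hint from the data and not the design. With the replicate block Pitpnb passed for shSiva1 against control (-0.39; limma, adjusted p = 0.0291), Sec14l5 passed over both hairpins (-0.62; adjusted p = 0.0411), the other probe of Pitpnc1 passed in LSZ4 (0.96; adjusted p over probes = 0.0465), and the block left the other member counts as they were. Dim signal limits the Pitpnm3 controls.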
